A study of Mus musculus with 2 samples.

Results

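The BCL2 family genes described here are Bcl2, Bcl2l1, Mcl1, Bak1, Bok, Bad, Bid, Bcl2l11, Bmf and Bik, taken by symbol from a gene table of 54680 loci. All 10 were found, and 9 of them reached a level of 1 FPKM in at least 1 library. FPKM is the number of fragments per kilobase of gene model and per unit of sequencing depth. The table comes from RNA sequencing of CT26, a mouse colon cancer line, in 2 groups of 1 library each. In the knockdown cells a lentivirus delivered a short hairpin RNA that targets Setdb1, the gene of a methyltransferase that acts on histone H3. The control cells, given as wild type in the labels, carried the empty knockdown vector, so both groups had been through lentiviral infection. Both were grown in RPMI 1640 with serum and collected on day 6, when the knockdown cells are described as changed in phenotype and differentiated. Nothing in the labels says whether either culture was a clone or how many infections were pooled.

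Proteins of this family decide whether the outer mitochondrial membrane stays closed. Pro-survival members such as BCL2, BCL-XL (from Bcl2l1) and MCL1 hold the effectors BAX and BAK in check, and when effectors assemble in the membrane, cytochrome c leaves the mitochondrion and activates the caspases. BH3-only members report damage or loss of growth signals: they bind the pro-survival proteins through their BH3 helix, and some also activate the effectors directly. In the intestinal epithelium and in colon carcinoma cells, BCL-XL and MCL1 are among the main pro-survival members.

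The BH3 segment is the part that pro-survival and pro-death members have in common, and it is shown here because the 2 classes are compared below. Each line gives the 27 bases of coding sequence around its core, 5′ to 3′ on the gene's strand, from GENCODE M21 transcripts on GRCm38. Capitals mark the leucine codon that opens the core and the codon of its conserved aspartate.
Bcl2: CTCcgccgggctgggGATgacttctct
Bcl2l1: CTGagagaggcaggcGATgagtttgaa
Mcl1: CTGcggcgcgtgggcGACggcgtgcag
Bak1: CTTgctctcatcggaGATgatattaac
Bok: CTGctgcgcttgggaGATgagctggag
Bad: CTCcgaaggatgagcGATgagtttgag
Bid: CTCgcccaaataggcGATgagatggac
Bcl2l11: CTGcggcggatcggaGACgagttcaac
Bmf: CTTcagtgtattgcaGACcagttccat
Bik: CTGgcctgcatcggcGATgagatggac

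The core searched was a leucine, any 3 residues, then glycine, alanine or serine, then aspartate, and it occurred exactly 1 time in the coding sequence of each of the 10 genes. The aspartate codon was GAT in 7 genes and GAC in 3. Over the 45 pairs of genes, 10 to 22 of the 27 bases were identical, with a median of 15. The closest pair was Bid and Bik, with 22 identical bases, and the farthest Bcl2l1 and Bmf, with 10. Among the pro-survival genes the segment lies at chr1:106712575-106712601 in exon 1 of Bcl2, at chr2:152829697-152829723 in exon 2 of Bcl2l1 and at chr3:95659436-95659462 in exon 1 of Mcl1. For the effectors it lies at chr17:27022531-27022557 in exon 4 of Bak1, and in Bok it is split between exons 2 and 3, from 93686657 to 93689170 on chromosome 1. The BH3-only positions are chr19:6950792-6950818 in exon 3 of Bad, chr6:120897289-120897315 in exon 4 of Bid and chr2:128147150-128147176 in exon 3 of Bcl2l11. Those of Bmf and Bik are chr2:118545100-118545126 in exon 4 and chr15:83543084-83543110 in exon 3. Bcl2, Bcl2l1, Bak1, Bid and Bmf are on the minus strand and the others on the plus strand.

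Whole reads could be recovered from the FPKM values, 18421604 in the control and 19045830 in the knockdown library. Each read ratio below is the knockdown over the control library, each relative to its own total, with a 95% exact binomial (Clopper-Pearson) interval. Intervals cover counting error only, since PCR copies are not independent molecules, and with 1 library a group no difference has a replicate check or a p-value. Setdb1 was at 10.4 FPKM in the control and 2.47 FPKM in the knockdown library. Of 9 epithelial and colon markers, 3 reached 1 FPKM: Krt18, Krt19 and Krt20. All 9 summed to 43.2 FPKM in the control and 128 FPKM in the knockdown library. Most of this was Krt18, at 37.7 and 90.0 FPKM, and Krt20, at 5.07 and 35.6 FPKM. Krt19, at 0.0288 and 1.53 FPKM, passed the filter through the knockdown library alone, so the filter itself favoured a higher value there. Epcam and Cdh1, which define epithelium, were listed at 0 in both libraries, while the 4 mesenchymal markers summed to 1304 and 1487 FPKM. Of these, Vim and Fn1 were higher and Col1a1 and Col1a2 lower in the knockdown library, and the median log2 ratio was -0.13, opposite in sign to the change of the sum. Of 5 haematopoietic markers only Cd68 reached 1 FPKM, at 10.4 and 100.2 FPKM, and Cd3e, Itgam and Adgre1 were at 0, as were the 3 endothelial markers. The part of these marker levels in the results below was not tested, and in whole cultures fewer cells of a kind and less RNA per cell cannot be told apart.

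The pro-survival genes did not move as 1 block. Bcl2l1 (ENSMUSG00000007659, chr2:152780668-152831728), which encodes BCL-XL, had 96.8 FPKM (8316 reads) in the control and 70.8 FPKM (6083 reads) in the knockdown library. By FPKM it was the highest of the 10 genes in the control and the fourth in the knockdown library, with a read ratio of 0.708 (0.684 to 0.731). Mcl1 (ENSMUSG00000038612, chr3:95658788-95663176), whose protein is short-lived and has to be made continuously, was at 74.9 FPKM (4796 reads) and 85.2 FPKM (5456 reads). Its level was slightly higher in the knockdown library, with a read ratio of 1.10 (1.06 to 1.14). Bcl2 (ENSMUSG00000057329, chr1:106538178-106714274), the founding member, was lowest of the 3, at 1.12 FPKM (192 reads) and 0.472 FPKM (81 reads). That is a read ratio of 0.408 (0.311 to 0.532), or 2.45-fold lower in the knockdown library. Bcl2 passed the filter of 1 FPKM through the control library alone, so the filter itself favoured a lower value in the other library.

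The balance of the pair that carries most pro-survival mRNA shifted towards Mcl1 in the knockdown library. The level of Mcl1 divided by that of Bcl2l1 was 0.774 in the control and 1.20 in the knockdown library. This quotient, which no scaling of the libraries can alter, was 1.56 times as large in the knockdown library (exact conditional interval 1.48 to 1.64). Its crossing of 1 rests on the gene model lengths: in reads, Bcl2l1 stayed above Mcl1 in the knockdown library, at 6083 against 5456. Bcl2l1 made up 56.0% of the summed pro-survival FPKM of the 3 genes in control cells and 45.2% in knockdown cells, and Mcl1 43.3% and 54.5%. The sum itself was 173 and 157 FPKM. Bcl2l1 and Mcl1 each also have a shorter, pro-death splice form, and values per gene do not separate the forms.

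**Figure D1:**
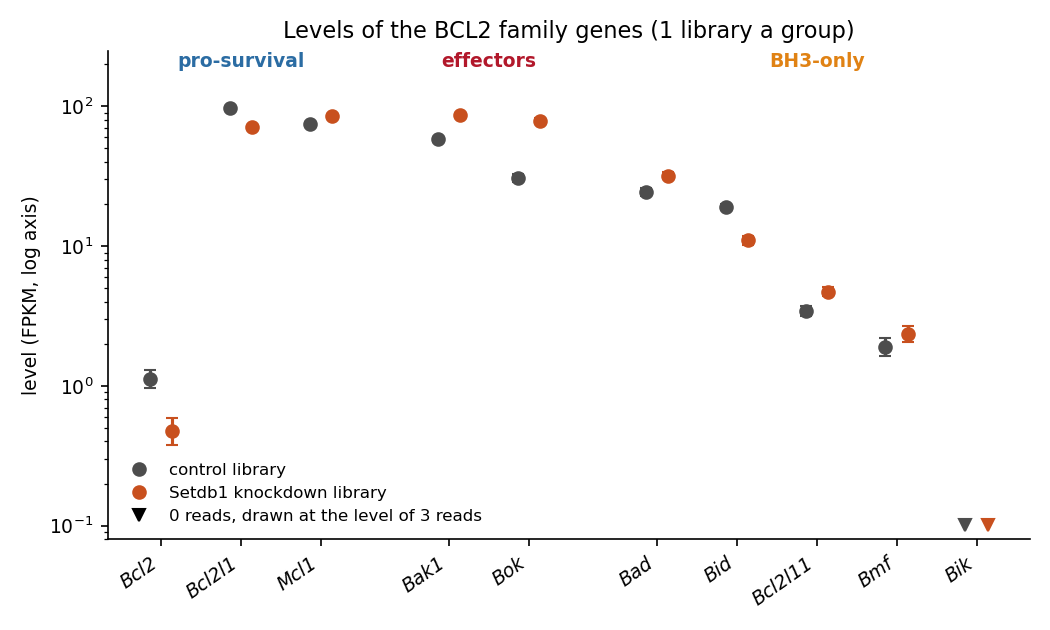
Level of each of the 10 genes in FPKM on a log axis, grouped by role, with the control library in grey and the Setdb1 knockdown library in orange. Bars are 95% Poisson intervals of the reads, and triangles stand for 0 reads, drawn at the level of 3 reads. Bok, at 30.8 and 79.1 FPKM, is the widest separated pair among genes above 10 FPKM, and Bik has no reads in either library.

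Both effectors of the list were higher in the knockdown library. Bok (ENSMUSG00000026278, chr1:93685660-93695764), an effector that is kept low by proteasomal turnover and acts without the usual BH3-only trigger, was at 30.8 FPKM (1060 reads) and 79.1 FPKM (2725 reads). Its read ratio was 2.49 (2.32 to 2.67). On the log2(FPKM + 1) scale the difference was 1.33, above that of 96.5% of the 10671 genes that reached 1 FPKM in at least 1 library. Bok was the 1 gene of the 9 at that level that was at least 2-fold higher on this scale, and none was 2-fold lower. Over all genes at that level, 6.81% were 2-fold higher and 4.85% 2-fold lower. At 1.5-fold, Bok was still the 1 gene called higher and Bid the 1 called lower, where 16.9% and 14.3% of all genes were called. After correction for GC content and gene model length, the log2 difference of Bok was 1.08. When all genes were split into 3 equal parts by GC content, the median log2 ratio was 0.16 in the highest part and -0.16 in the lowest. The GC content of Bok was 61.0%, and whether it has a part in the Bok value was not tested.

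Bak1 (ENSMUSG00000057789, chr17:27019810-27029009), which encodes the constitutively mitochondrial effector BAK, was at 58.2 FPKM (2623 reads) in the control and 86.2 FPKM (3886 reads) in the knockdown library. Its read ratio of 1.43 (1.36 to 1.51) is smaller than that of Bok, and the Bok level over the Bak1 level went from 0.529 to 0.917. By FPKM, Bak1 ranked below Bcl2l1 and Mcl1 in the control library and had the highest value of the 10 genes in the knockdown library. There its counting interval of 83.5 to 88.9 FPKM overlaps that of Mcl1, 83.0 to 87.5 FPKM, so their order is not resolved. The model of Bak1 shares 614 exonic bases with Ggnbp1 on the other strand, which had 28 and 41 reads.

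The BH3-only genes went in both directions and at lower levels. Bad (ENSMUSG00000024959, chr19:6941861-6951898), a sensitizer whose binding to BCL-XL is switched off by survival kinases, was at 24.5 FPKM (920 reads) and 31.9 FPKM (1199 reads). The read ratio was 1.26 (1.16 to 1.38). In GENCODE M21, Gpr137, on the opposite strand, shares 524 of the 2558 exonic bases of Bad, 20.5%. The counted model of Bad has 2007 bases and a different position, so its own overlap was not measured. Gpr137 had 677 and 1129 reads. Whether counting used strand is not given in the sources used here, so reads of the shared stretch cannot be assigned.

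Bid (ENSMUSG00000004446, chr6:120891930-120916853), which caspase-8 cleaves to carry the death-receptor signal to mitochondria, was the clearest BH3-only gene in the other direction. It was at 19.0 FPKM (1265 reads) in the control and 11.0 FPKM (731 reads) in the knockdown library, a read ratio of 0.559 (0.510 to 0.613). Its partner on the opposite strand is another family gene, Bcl2l13, whose exons cover 628 bases of Bid, 17.7% of its exons. Bcl2l13 had 1949 reads in the control and 2485 in the knockdown library, so the overlapping pair differed in opposite directions. The level of Bad over that of Bid went from 1.29 to 2.90, which is 2.25 times as large (1.99 to 2.56).

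Bcl2l11 (ENSMUSG00000027381, chr2:128126038-128162547) encodes BIM, which binds every pro-survival member and activates BAX and BAK. It was at 3.44 FPKM (517 reads) and 4.71 FPKM (709 reads), with a read ratio of 1.33 (1.18 to 1.49). Bmf (ENSMUSG00000040093, chr2:118528757-118549687), a BH3-only protein held at the cytoskeleton, was at 1.90 FPKM (187 reads) and 2.35 FPKM (231 reads). The interval of its read ratio of 1.19, from 0.981 to 1.46, includes 1, so no difference was detectable at this depth. Bik (ENSMUSG00000016758, chr15:83526862-83544634) had 0 reads in both libraries, which allows a level of up to 0.101 FPKM at 3 reads.

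Counted over the 9 genes with a level of 1 FPKM or more, the 95% counting interval lay above a ratio of 1 for 5 genes and below it for 3. Over all genes at that level, 75.8% had an interval without 1, 35.2% above and 40.6% below, so such intervals are common at this depth. A read ratio of at least 2-fold was found for Bok in the higher and for Bcl2 in the lower direction, against 10.3% and 9.6% of all genes. At 1 gene of 9 in each direction, the members lay near the share of all genes.

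**Figure D2:**
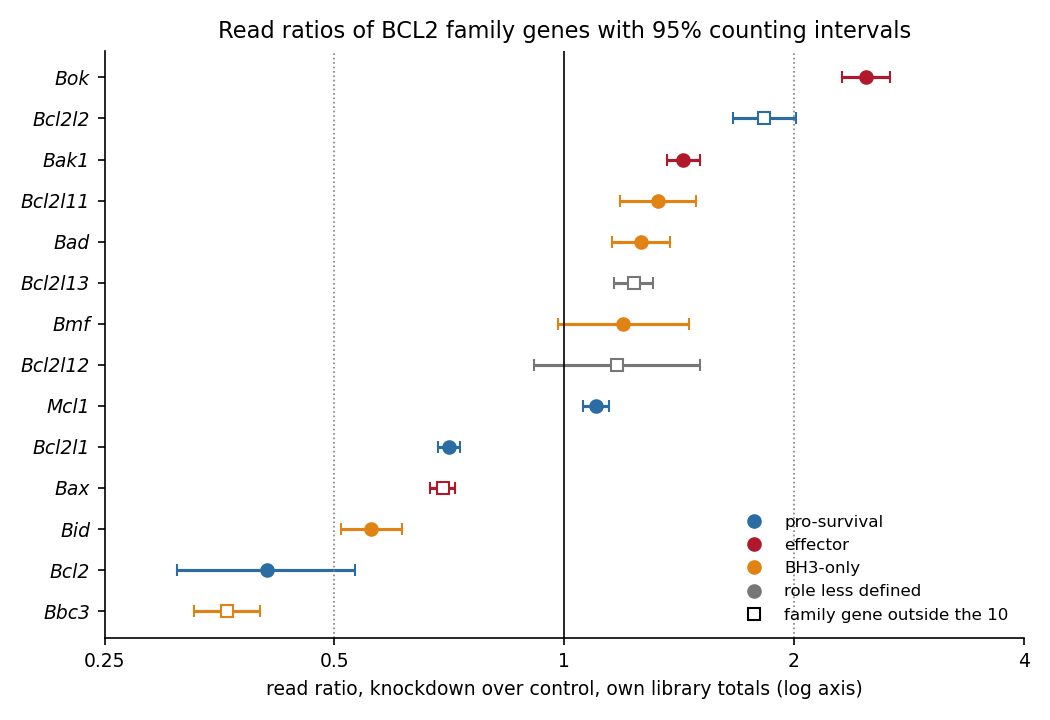
Read ratio of each family gene that reached 1 FPKM, knockdown over control relative to own library totals, on a log axis with 95% exact binomial intervals. Colours give the role, filled circles are 9 of the 10 genes and open squares are family genes outside them. Bok at 2.49 and Bbc3 at 0.362 are the ends of the range, and the interval of Bmf crosses 1.

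Set side by side, the pro-death genes of the list stood higher in the knockdown library relative to the pro-survival genes. The median log2 ratio of (FPKM + 1) was -0.45 over the 3 pro-survival genes and 0.37 over the 6 pro-death genes with a level of 1 FPKM or more, beside -0.00039 over all genes. The pro-survival value leans on Bcl2, which passed the filter through the control library alone: with a filter at 5 FPKM, which leaves out Bcl2, Bcl2l11 and Bmf, the median was -0.13 over the pro-survival and 0.46 over the pro-death genes. The summed FPKM of the 7 pro-death genes was 138 in the control and 215 in the knockdown library. Divided by the pro-survival sum this gave 0.797 and 1.38, a quotient 1.73 times as large in the knockdown library (counting interval 1.66 to 1.80). The effectors account for most of it: their sum went from 88.9 to 165 FPKM, while that of the BH3-only genes was 48.8 and 49.9 FPKM. In reads, with no division by model length, the pro-death genes stayed below the pro-survival genes in the knockdown library, at 9481 against 11620. Without Bok the quotient of summed FPKM was 1.40 times as large.

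That shift depended on which family genes were included. Of 13 further family genes, 5 reached 1 FPKM: Bcl2l2, Bax, Bbc3, Bcl2l12 and Bcl2l13. Bax, the effector that moves from the cytosol to mitochondria, was at 215 FPKM (6357 reads) in the control and 154 FPKM (4558 reads) in the knockdown library. Its read ratio was 0.694 (0.667 to 0.721), opposite in direction to Bak1 and Bok. Bbc3, which encodes the BH3-only protein PUMA, was at 36.9 FPKM (1468 reads) and 13.8 FPKM (549 reads), a read ratio of 0.362 (0.327 to 0.399). Bcl2l2, which encodes the pro-survival protein BCL-W, was at 7.88 FPKM (659 reads) and 14.9 FPKM (1246 reads), a read ratio of 1.83 (1.66 to 2.01). With Bax and Bbc3 among the pro-death and Bcl2l2 among the pro-survival genes, the quotient of summed levels was 2.16 in the control and 2.24 in the knockdown library. It was then 1.04 times as large (1.002 to 1.072), in place of 1.73.

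Within each role the make-up differed between the libraries. The effectors with Bax summed to 304 FPKM in the control and 320 FPKM in the knockdown library. Bax made up 70.8% of this sum in the control and 48.3% in the knockdown library, Bak1 19.1% and 26.96%, and Bok 10.1% and 24.7%. The level of Bok over that of Bax was 0.143 and 0.512, which is 3.59 times as large in the knockdown library (3.31 to 3.89), and that of Bak1 over Bax 2.07 times as large (1.94 to 2.20). The BH3-only genes with Bbc3 summed to 85.7 and 63.7 FPKM, and Bad made up 28.5% of the sum in the control and 50.03% in the knockdown library. The pro-survival genes with Bcl2l2 summed to 181 and 171 FPKM.

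**Figure D3:**
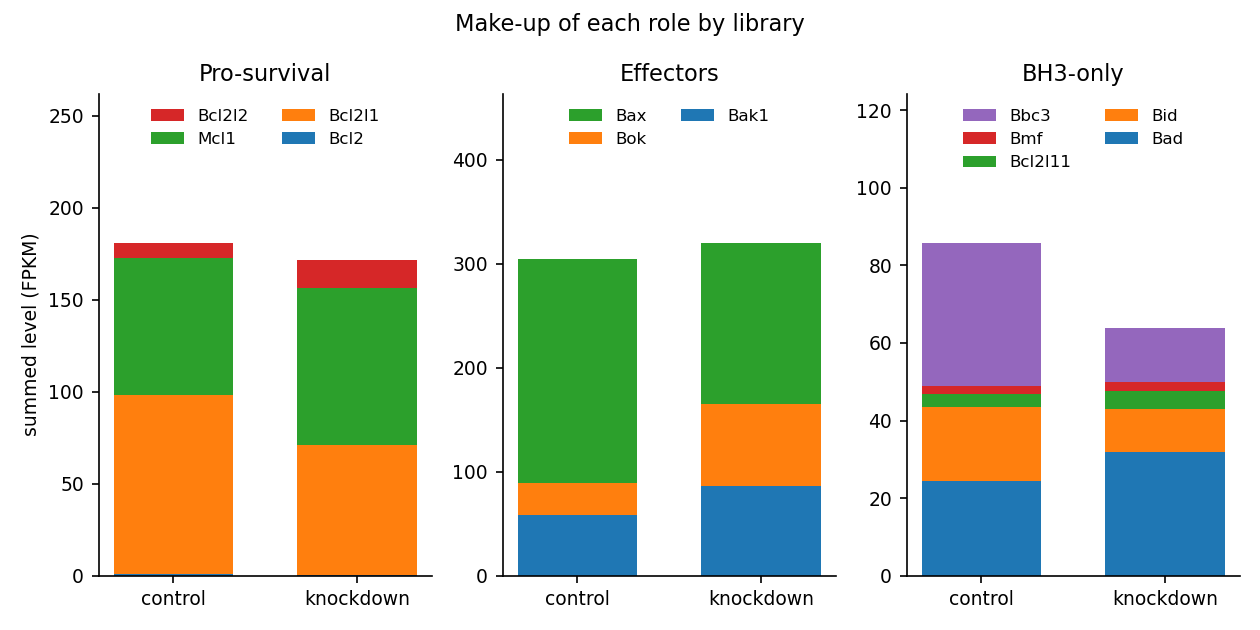
Summed level in FPKM of the pro-survival genes, the effectors and the BH3-only genes in the control and the knockdown library, stacked by gene, with Bcl2l2, Bax and Bbc3 included and Bik absent at 0. Each panel has its own scale from 0. The effector bars are 304 and 320 FPKM high, while the Bax part goes from 70.8% to 48.3%.

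The other family genes were low or near the middle of all genes. Bcl2l13, an outer membrane protein also known as a mitophagy receptor, was at 11.4 and 14.6 FPKM, and Bcl2l12 at 3.19 and 3.86 FPKM (118 and 143 reads). The interval of the Bcl2l12 read ratio of 1.17, from 0.912 to 1.51, includes 1, and its model overlaps Irf3 and a second locus with reads. The remaining 8 genes, Bcl2a1a, Bcl2a1b, Bcl2a1d, Bcl2l10, Pmaip1, Hrk, Bcl2l14 and Bcl2l15, had 8 reads in the control and 10 in the knockdown library together. Pmaip1, which encodes the MCL1-binding BH3-only protein NOXA, had 0 reads in both. The Bcl2a1 genes are near-identical copies, and reads they share could have been dropped in counting. Of the 5 genes at 1 FPKM or more, 1 was at least 2-fold lower on the log2(FPKM + 1) scale, Bbc3, and 0 were 2-fold higher. Over all genes at that level, 4.85% were 2-fold lower and 6.81% higher. The median of the 5 was 0.22, and -0.0760 when the filter was set at 5 FPKM, which leaves out Bcl2l12.

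Downstream of the family, 17 of 18 apoptosome and caspase genes reached 1 FPKM. On the log2(FPKM + 1) scale 10 were higher and 7 lower in the knockdown library, none by 2-fold, with a median of 0.15, or 0.40 with the filter at 5 FPKM. Over all genes at 1 FPKM or more, 5293 were higher and 5336 lower on this scale, and 6.81% were 2-fold higher and 4.85% 2-fold lower. On read ratios 1 gene of the list was 2-fold lower and 0 higher, beside 9.6% and 10.3% of all genes. It was Birc6, a large inhibitor of apoptosis protein, named after its values were seen, at 0.479 (0.434 to 0.528). The highest ratio was that of Casp6, an executioner caspase, at 2.53 and 4.70 FPKM (log2 ratio 0.69). The lowest was that of Htra2, a mitochondrial protease that antagonises the caspase inhibitors, at 29.0 and 18.2 FPKM (log2 ratio -0.65), and Htra2 overlaps Aup1 and Loxl3, which have reads. The 5 caspases of the list, grouped after their values were seen, were all higher, from 0.18 to 0.69. All stayed above 0 under the 4 other scalings and after the correction for GC content and length. The scalings could not have changed a sign here, as they shift a log2 ratio by at most 0.0884. Of the 9 outer membrane partners, 4 were higher and 5 lower (2 and 7 under upper-quartile scaling), with a median of -0.10. None was past 2-fold on the log2(FPKM + 1) scale, beside the same 6.81% of all genes higher and 4.85% lower. They ranged from -0.67 for Mff, a receptor for the fission dynamin, at 5.50 and 3.09 FPKM, to 0.71 for Vdac1, the main pore of the outer membrane, at 171 and 280 FPKM.

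Genes listed as acting on single members were examined next. In the list of BAD phosphorylation, 3 of 12 genes were at least 2-fold lower on the log2(FPKM + 1) scale and 0 higher, beside 4.85% and 6.81% of all genes, with a median of -0.14. On read ratios, which carry no pseudocount, 3 were 2-fold lower and 1 higher, beside 9.6% and 10.3% of all genes. Akt1, a kinase that inactivates BAD, was at 126 FPKM (9672 reads) and 51.3 FPKM (3937 reads), a log2 ratio of -1.28. Ywhaz, an adaptor that retains phosphorylated BAD in the cytosol, was at 141 FPKM (10880 reads) and 51.1 FPKM (3940 reads), a log2 ratio of -1.45. Ppp3ca, the catalytic subunit of calcineurin, which removes that phosphate, was at 15.7 and 4.56 FPKM (log2 ratio -1.58). Of this list the highest ratio was that of Rps6ka1, a kinase that also phosphorylates BAD, at 3.32 and 7.21 FPKM (log2 ratio 0.93), and its read ratio of 2.10 (1.81 to 2.44) is the call in the higher direction.

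In the list of MCL1 turnover, 6 of 8 genes reached 1 FPKM, with a median of -0.40. On the log2(FPKM + 1) scale 2 of them were 2-fold lower and 0 higher, beside the same 4.85% and 6.81% of all genes. On read ratios 2 were 2-fold lower and 1 higher, beside 9.6% and 10.3%. Huwe1, a ubiquitin ligase for MCL1, was at 13.9 FPKM (6112 reads) and 6.33 FPKM (2785 reads), a log2 ratio of -1.02. Gsk3b, the kinase that marks MCL1 for degradation, was at 6.46 and 2.68 FPKM, also a log2 ratio of -1.02. Both lie just past 2-fold. Btrc, a ligase subunit that recognises the marked protein, had the highest ratio, at 2.05 and 4.34 FPKM (log2 ratio 0.81), and its read ratio of 2.05 (1.87 to 2.26) is that 1 call. Among the 9 genes of the list of BIM and BMF control at 1 FPKM or more, the median was 0.30. Spry4, a feedback inhibitor of the ERK pathway, which marks BIM for degradation, was the 1 gene 2-fold higher, at 21.6 and 48.8 FPKM (log2 ratio 1.14). None was 2-fold lower, and over all genes 6.81% were 2-fold higher and 4.85% lower. The lowest of the list was Mapk9, a JNK kinase that phosphorylates BIM and BMF, at 3.94 and 2.16 FPKM (log2 ratio -0.65).

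**Figure D4:**
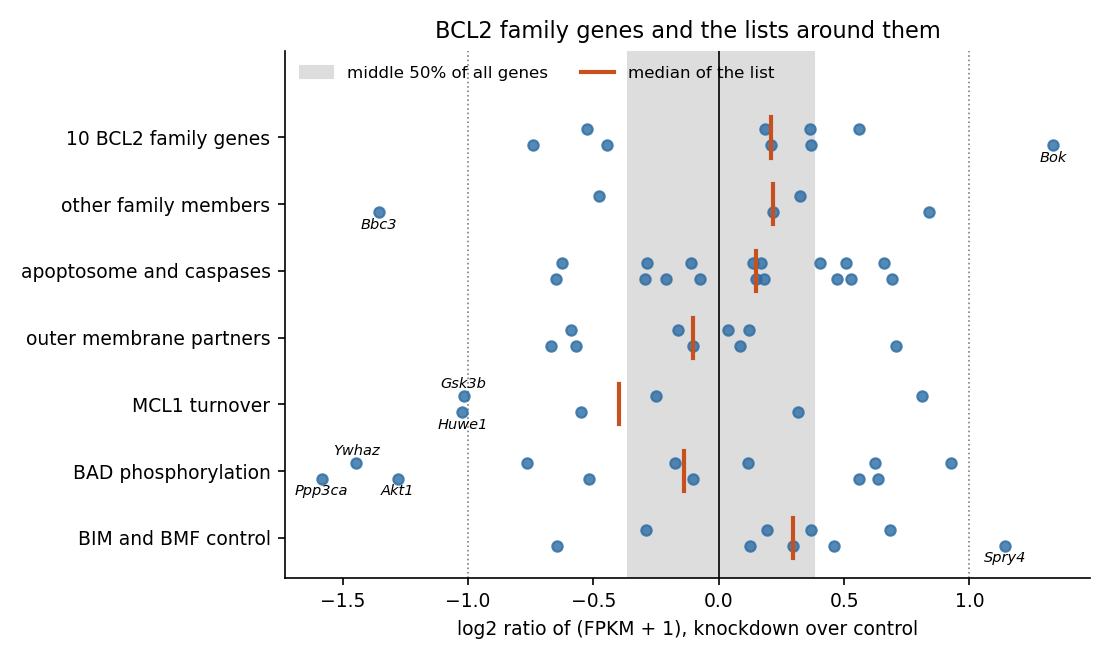
Log2 ratio of (FPKM + 1), knockdown over control, for each gene at 1 FPKM or more in the BCL2 family list and 6 lists around it. Orange bars are list medians, the grey band is the middle 50% of all genes and dotted lines mark 2-fold. Labelled genes are past 2-fold on this scale. Bok and Spry4 are past it on the higher side, and Bbc3, Gsk3b, Huwe1, Akt1, Ywhaz and Ppp3ca on the lower side.

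RefSeq promoters on GRCm38.p6, 250 bases before to 50 after each start, were found for 9 of the 10 genes, 15 windows in all. They were searched on both strands for 5 motifs. The forkhead motif TGTTTAC, present in 3.65% of 32851 promoters, was found in 1 window of Bcl2l11, 227 bases before the start. The STAT motif TTCNNNGAA, the interferon response motif (GAAA, any 2 bases, GAAA), the E-box CACGTG and the NF-kappaB motif (GGGAC followed directly by TTTCC) were in none of the 15 windows, against 8.30%, 3.44%, 7.15% and 0.155% of all promoters. A match is a run of letters and no measured site.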

How the data were processed

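RNA was sequenced from 1 control and 1 Setdb1 knockdown culture of CT26 cells. The authors deposited FPKM values per gene with model lengths, per the file headers. HISAT2, featureCounts 1.5.0-p3 and GRCm38 are named in the submitters' processing notes, and the strand setting is not given in the sources used here. Of 54409 gene IDs found in GENCODE M21 on GRCm38, 98.3% had the same position, as had 9 of the 10 members; Bad differed. FPKM times gene length gave whole reads (within 0.001) for 100% of values above 0. Both columns had been divided by 18731117 reads, so FPKM ratios carry the 1.03 ratio of the totals. Ratios are log2 of (FPKM + 1), knockdown over control. Genes counted had to reach 1 FPKM in either library, and were called at 2-fold. With 1 library a group no test between conditions was made. Intervals on quotients of sums propagate Poisson counting error on a log scale.

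Members and lists were chosen with earlier results of these data known. The text names all 10 members, Setdb1, other family genes at 1 FPKM or more, and from each further list the genes past 2-fold and the highest and lowest ratio. Other genes named were chosen after their values were seen. Of the marker lists, 1 gene is not reported here. Alternatives were a pseudocount of 0.1, no filter or 5 FPKM, 4 scalings, 1.5-fold, and log2(CPM + 1) of recovered reads. A GC and length correction (lowess, span 0.3), read ratios without a pseudocount and other sets of family genes were added after seeing the data. Intervals and calls were tested on simulated Poisson reads with known changes put in. That simulation held no variation between libraries or cultures, so it covers counting error only. Tools were biopython 1.88, matplotlib 3.10.9, scipy 1.17.1, pandas 2.3.3, statsmodels 0.14.6 and numpy 2.4.6 under Python 3.11.15.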

Additional observations from a re-analysis of the deposited data

How the results depend on the processing

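Of 143 alternative values of 16 results, 113 lay inside the counting interval of the reported value (for counts, within a factor of 1.5), 30 moved and 0 reversed a call. For a median, the band used ran from the median of its genes' lower limits to the median of their upper limits. For the difference of medians, opposite ends of these bands were subtracted. Such bands are a rule of thumb and no counting intervals of a median or a difference. Some of the 113 could not move. The filters leave each member's ratio as it is, and no pseudocount, filter or scaling alters the quotient of sums. A reversal was sought only where the reported log2 ratio was past 2-fold, which held for Bok alone. The median of the other family genes at 5 FPKM was the 1 value that changed sign. All 78 alternative values of the members kept their sign, those under the filters by construction. A pseudocount of 0.1, which shrinks low genes less, put Bcl2 at -1.09, and log2(CPM + 1), which also changes the unit and the scaling, at -1.12. Under both, and on read ratios, 2 members were past 2-fold in place of 1. The added member was Bcl2, which passed the filter through the control library alone. On read ratios 10.3% of all genes were 2-fold higher and 9.6% lower. Under the pseudocount of 0.1 and log2(CPM + 1) the share of all genes was not computed. At a threshold of 1.5-fold 2 members were past it, beside 16.9% of all genes higher and 14.3% lower. Upper-quartile scaling gave -0.53 for Bcl2l1 and the pro-survival median, 0.0964 for Mcl1 and 0.47 for Bak1. Scaling by own read totals gave -0.49 for Bcl2l1 and that median, and without the 100 highest genes these were -0.51 and Mcl1 0.12. On log2(CPM + 1) Bcl2l1 and that median were -0.50. With 5 FPKM, which removes Bcl2, Bcl2l11 and Bmf, the pro-survival median was -0.13, its difference from the pro-death median -0.60 in place of -0.81, the other family genes -0.0760 in place of 0.22 and the apoptosome and caspase genes 0.40 in place of 0.15. After the GC and length correction Bcl2 was at -0.36, Bcl2l1 at -0.64, Bak1 at 0.35, Bok at 1.08 and Bad at 0.17, the pro-survival median at -0.36 and the difference of medians at -0.63. The quotient of sums was 1.04 with Bax, Bbc3 and Bcl2l2 and 1.40 without Bok, in place of 1.73. For shifts without a stated reason, the cause was not tested. No paired analysis was possible because there was 1 library on each side, so none could be left out either. Depth limits Bmf and Bik.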
